A study of Mus musculus with 6 samples.

Results

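The genes described here encode membrane carriers that move neurotransmitters or amino acids, in medulloblastomas and in normal cerebellum of the mouse. They are the protein-coding genes of the deposited table whose symbols begin with Slc1a, Slc6a, Slc7a, Slc17a, Slc18a, Slc32a, Slc36a or Slc38a, or are Slc3a2. This rule uses names and no measured value, and it found 71 of 43629 genes. By their known main substrates, 22 were treated as neurotransmitter carriers, 39 as nutrient carriers and 10 as others. The others carry substrates of other kinds, have an unsettled substrate or, for Slc7a6os, are not carriers and share only a name. A further 4 matching symbols were of other biotypes and were not members.

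RNA was sequenced from 3 medulloblastomas of Math1-Cre SmoM2.c/wt mice and from 3 cerebella of SmoM2.c/wt mice without the Cre. All 6 libraries came from female C57BL/6 mice at postnatal day 35, with age- and sex-matched littermates as controls according to the submitters. Both groups carry the SmoM2 allele, a constitutively active form of the Hedgehog receptor component Smoothened. In the tumor group it is switched on by the Cre under the Math1 promoter, active in the progenitors of cerebellar granule neurons. Descendants of these cells keep the allele switched on. Both tissues are mixtures of cells, and the Cre marks a lineage rather than the whole tumor mass. Whether each library is from its own mouse is not stated in the labels, and the p-values therefore measure spread among these samples that may be only technical. Read totals were 49969867 to 69550200 in tumors and 44902217 to 49455221 in controls, and a count of 0 in a library allows a value of up to 2.17 to 3.57 normalized counts (3 reads, counting error only).

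Carriers of transmitters work in pairs of places. Vesicular carriers fill synaptic vesicles and so mark which transmitter a neuron can release, and plasma membrane carriers on neurons and glia clear the released transmitter. Nutrient carriers supply amino acids for protein synthesis and metabolism, often as exchangers, and several of them feed leucine, arginine or glutamine to the growth-controlling kinase complex mTORC1. In the cerebellum the most abundant neurons, the granule cells, release glutamate, Purkinje cells and interneurons release GABA, and Bergmann glia take up much of the glutamate.

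Among the 71 members, 13 were higher in tumor, 33 were lower, 13 did not pass the test and 12 were not tested for want of reads. The call required a Benjamini-Hochberg adjusted p below 0.05 in limma's test over all 22117 genes with a normalized count over 1 in at least 3 libraries. By the same rule, 30.6% of all genes tested were called higher and 31.5% lower. At least 2-fold changes were called for 10 members upward and 24 downward, where 17.5% of all genes tested were called at least 2-fold higher and 20.5% at least 2-fold lower. For the 59 tested members the log2 fold change had a median of −0.76, against −0.02 for all genes tested. In bulk tissue, fewer cells of a type and less RNA per cell cannot be told apart. Of the 59, 57 had a value over 1 in at least 2 libraries of each group, and the other 2, Slc6a20b and Slc38a8, passed the filter on the strength of the controls. Both count among the falls, and without them 13 of 57 tested members were higher and 31 lower.

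The neurotransmitter carriers and the nutrient carriers both held more falls than rises. Of 21 tested neurotransmitter carriers, 4 rose (19.0%), 12 fell (57.1%) and 5 did not pass, with a median log2 fold change of −1.08. Of 32 tested nutrient carriers, 8 rose (25.0%), 17 fell (53.1%) and 7 did not pass, with a median of −0.52. Without Slc6a20b and Slc38a8, 8 of 30 nutrient carriers rose and 15 fell. Counting 3 carriers of proline and other neutral amino acids at synapses, Slc6a7, Slc6a17 and Slc7a10, with the neurotransmitter class changed these counts to 4 higher and 15 lower there, against 8 higher and 14 lower among nutrient carriers. The difference between the classes was not tested. Within both, members of the same small family moved in opposite directions.

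**Figure D1:**
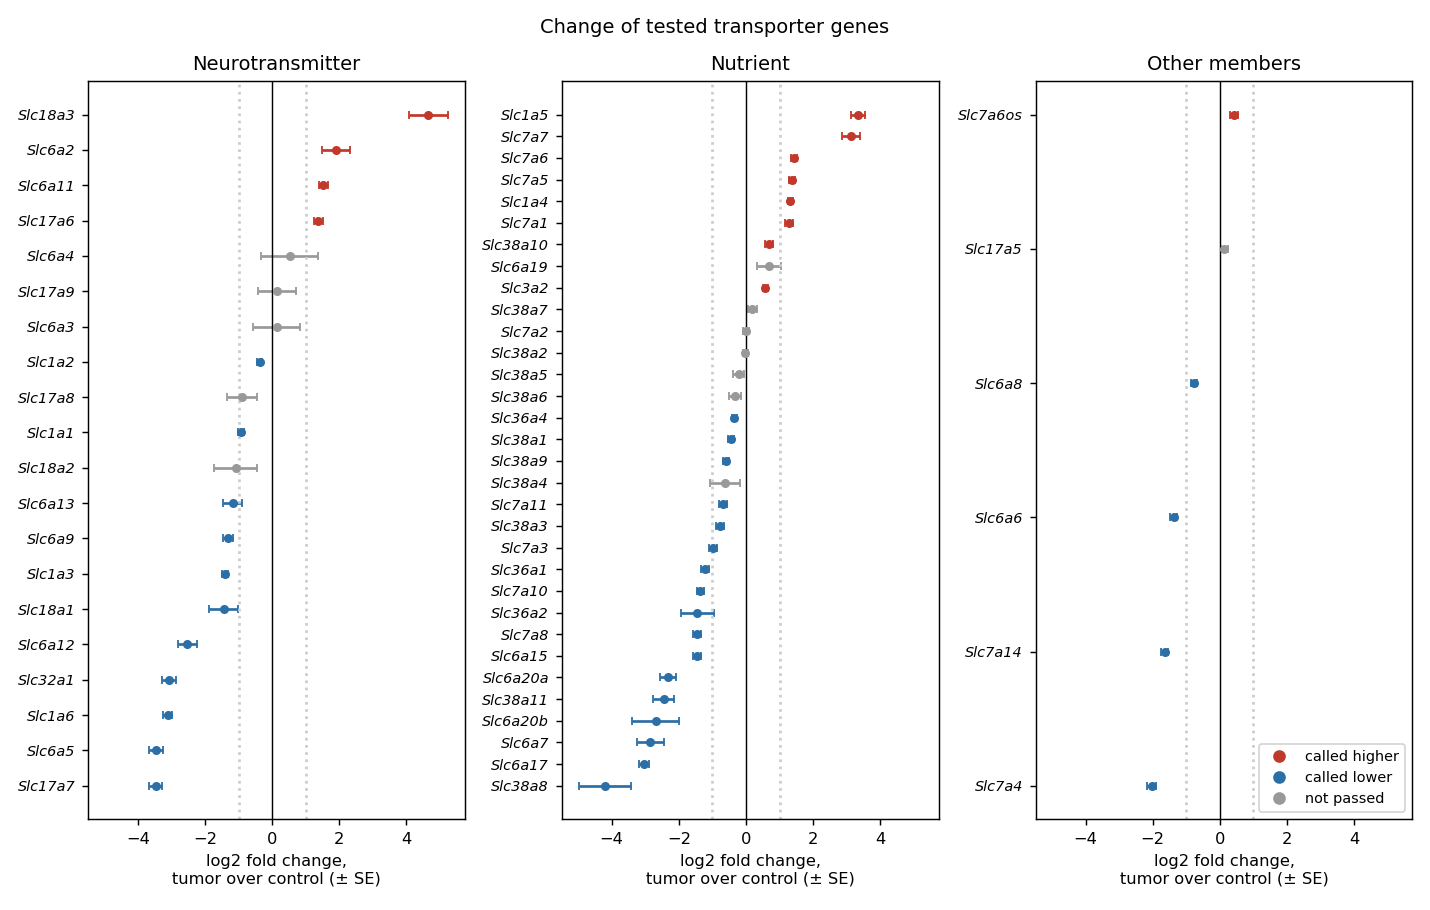
Log2 fold change (tumor over control, x axis) of tested members, with neurotransmitter, nutrient and other carriers in separate panels; error bars are limma standard errors, red points were called higher, blue points lower, grey points did not pass, and dotted lines mark 2-fold. Blue points outnumber red in each panel, and the other members hold 1 red and 4 blue points.

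The 2 main vesicular glutamate carriers changed in opposite directions. Slc17a7 encodes VGLUT1, the carrier of mature granule cell terminals, and lies at chr7:45163921-45176138 in mm10. It had 1059, 1451 and 2025 normalized counts in the tumor libraries, against 15473, 17546 and 15363 in the control libraries, in the order of libraries 1, 2 and 3 that is kept for all genes. The lowest control was above the highest tumor by a wide margin, an 11.02-fold fall (log2 fold change −3.46 ± 0.19, limma adjusted p = 2.59e-07). Here and below, log2 fold changes are tumor over control on the log2(value + 1) scale with limma's standard error. Slc17a6 encodes VGLUT2, which is used by climbing fibers, by some mossy fibers and by developing granule neurons, and lies at chr7:51621830-51671125. It had 5642, 5105 and 5874 normalized counts in the tumor libraries, against 1815, 2043 and 2634 in the control libraries. Every tumor library was above every control, a 2.59-fold rise (log2 fold change 1.37 ± 0.13, limma adjusted p = 1.04e-05).

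Beside the fall of Slc17a7, each of 10 marker genes of mature granule neurons fell, and their median was −3.12 on the log2 scale. Their summed level was 27875, 29423 and 46082 normalized counts in tumor libraries 1, 2 and 3, against 298428 to 340614 in controls. Tumor library 3 was highest for both Slc17a7 and this sum. Markers of granule neuron progenitors rose in 9 of 10 cases, with a median log2 fold change of 5.33. Their summed level was 221766 to 239407 in tumors, against 53043 to 60387 in controls. Most of the control sum was Zic1, which did not pass, with means of 55734 ± 3309 in tumors and 54195 ± 4332 in controls. The part of either in the transporter results was not tested.

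The ratio of Slc17a6 to Slc17a7 was 5.33, 3.52 and 2.90 in the tumors, against 0.117, 0.116 and 0.171 in the controls. This is a 28.5-fold difference in the ratio, and the groups do not overlap. In an exact two-sided permutation test over libraries, p was 0.1, the smallest that 3 against 3 can give, and 0.12 after adjustment over 6 such ratios. Per kilobase of exon, Slc17a6 made up 78.6% ± 5.01 of the vesicular glutamate carrier level in tumors and 11.8% ± 2.41 in controls (SD, n = 3 each). The summed level of the family was lower in tumor all the same, at 1309 ± 137 normalized counts per kilobase in tumors, against 3396 ± 219 in controls. The remaining vesicular glutamate carrier, Slc17a8, which encodes VGLUT3, was scarce at 11.5 ± 4.46 in tumors and 21.1 ± 3.500 in controls and did not pass the test.

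Slc32a1 encodes VGAT, the vesicular carrier of GABA and glycine and a defining gene of inhibitory neurons, and lies at chr2:158610767-158615748. It had 226, 425 and 421 normalized counts in the tumor libraries, against 2738, 2881 and 3091 in the control libraries. Tumor library 1 was the lowest and no tumor came near the controls, an 8.42-fold fall (log2 fold change −3.07 ± 0.22, limma adjusted p = 1.2e-06). All 9 markers of GABAergic interneurons and all 10 of Purkinje cells fell beside it, with medians of −3.07 and −3.32. Their summed levels were 12908 to 22035 and 44719 to 90675 in tumors, against 126692 to 134754 and 564834 to 579986 in controls. The lists share a gene, which counts in both sums, so they are not separate measures. Their part in the result was not tested.

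**Figure D2:**
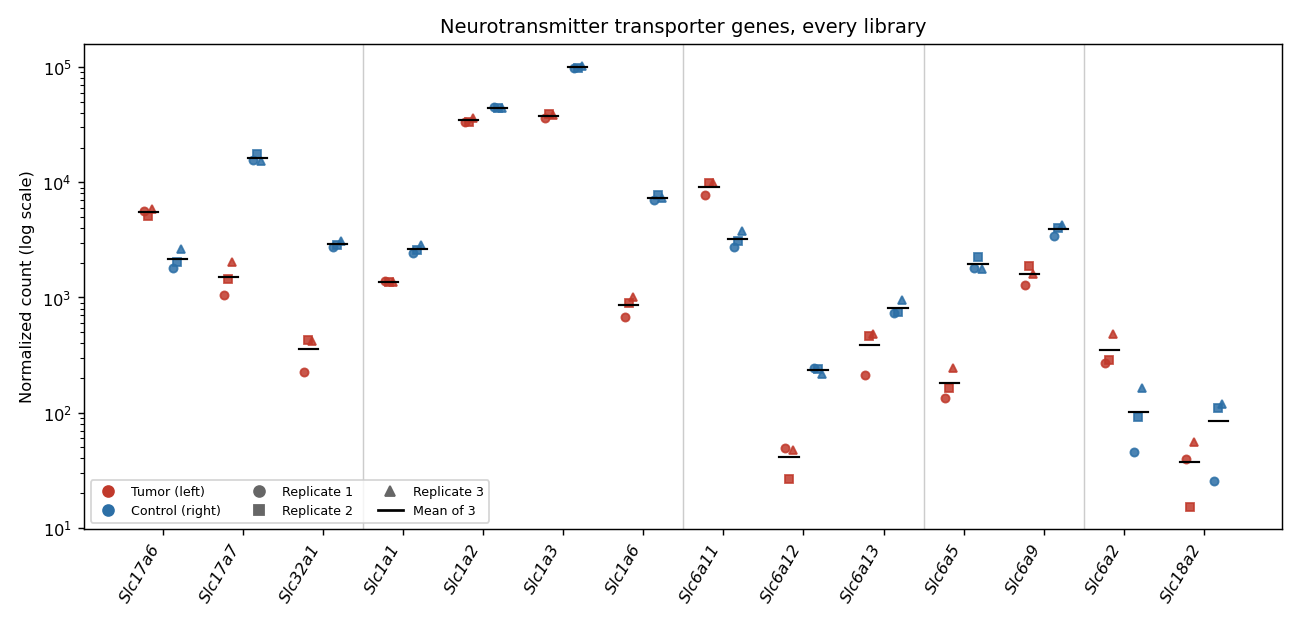
Normalized count (log axis) of neurotransmitter carriers in each of the 6 libraries, with tumor points left of control points and a bar at the mean of 3. Among the carriers shown, Slc17a6, Slc6a11 and Slc6a2 stand higher in tumor, and Slc17a7, Slc32a1, Slc1a6 and Slc6a5 lie far below the controls.

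Of 5 glutamate uptake carriers, 4 were tested and all 4 fell, and Slc1a7 had no read in any library. Slc1a3 encodes GLAST, the carrier of Bergmann glia and astrocytes, and lies at chr15:8634124-8710764. It had 36278, 39050.4 and 38461 normalized counts in the tumor libraries, against 97573, 99221 and 102271 in the control libraries. The spread within each group was small beside the gap between them, a 2.63-fold fall (log2 fold change −1.39 ± 0.09, limma adjusted p = 5.64e-07). It had the highest level per kilobase of all members in both groups, at 4443 ± 171 in tumors and 11677 ± 279 in controls. Slc1a2 encodes GLT-1, the main astrocytic glutamate carrier of the forebrain, and lies at chr2:102658659-102790784. It had 33453, 33383 and 36534 normalized counts in the tumor libraries, against 45456, 44357 and 43805 in the control libraries. The groups did not overlap, and the fall was 1.29-fold (log2 fold change −0.37 ± 0.08, limma adjusted p = 0.00332).

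The 2 glial carriers thus differed in the size of their fall, and the ratio of Slc1a3 to Slc1a2 shows it in every library. It was 1.08, 1.17 and 1.05 in tumors, against 2.15, 2.24 and 2.33 in controls. The log2 ratio differed by −1.02, tumor minus control, with p = 0.1 in the exact permutation test (0.12 adjusted over 6 ratios). Of 12 markers of astrocytes and Bergmann glia, 2 rose, namely Gfap, a filament gene of reactive astrocytes, and Sox9. A further 9 fell and 1 did not pass. Their summed level was 118934 to 141003 in tumors, against 241488 to 249247 in controls, and their part in the result was not tested.

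Slc1a6 encodes EAAT4, a carrier found mainly on Purkinje cells. It had 679, 901 and 1016 normalized counts in the tumor libraries, against 7051, 7809 and 7258 in the control libraries, and the highest tumor stood far under the lowest control. The fall was 8.62-fold (log2 fold change −3.11 ± 0.14, limma adjusted p = 6.23e-08). Its share of glutamate uptake carrier level per kilobase was 5.24% ± 0.830 in tumors and 18.2% ± 0.822 in controls. Slc1a1, which encodes the widely expressed neuronal carrier EAAC1, fell 1.91-fold, with means of 1364 ± 17.2 in tumors and 2617 ± 218 in controls (log2 fold change −0.94 ± 0.09, limma adjusted p = 1.07e-05). The family as a whole had 7634 ± 327 normalized counts per kilobase in tumors, against 18812 ± 308 in controls.

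Of the GABA uptake carriers described, Slc6a11 rose and Slc6a13 and Slc6a12 fell. Slc6a11 encodes the glial carrier called GAT3 in rat and human, and lies at chr6:114131241-114249886. It had 7829, 9928 and 9803 normalized counts in the tumor libraries, against 2741, 3085 and 3804 in the control libraries. The groups did not overlap, and the rise was 2.87-fold (log2 fold change 1.52 ± 0.13, limma adjusted p = 5.86e-06). Of the 12 astrocyte and Bergmann glia markers, Gfap rose 3.101-fold and Sox9 3.19-fold, Aqp4 did not pass and 9 fell, and their part in the rise of Slc6a11 was not tested. Per kilobase, its level was 1819 ± 233 in tumors and 636 ± 107 in controls.

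Slc6a13 encodes GAT2, which is found in the meninges, and Slc6a12 encodes BGT1, which also carries betaine, an osmolyte. Slc6a13 had 212, 460.2 and 481 normalized counts in the tumor libraries, against 739, 755 and 960.2 in the control libraries. Tumor library 1 was the lowest, and the fall was 2.25-fold (log2 fold change −1.17 ± 0.28, limma adjusted p = 0.00496). Without tumor library 1, the log2 fold change was −0.79 (limma adjusted p = 0.00233), a fall of less than 2-fold. Slc6a12 had 49.8, 26.5 and 47.2 normalized counts in the tumor libraries, against 246, 240.2 and 218 in the control libraries. It fell 5.79-fold (log2 fold change −2.53 ± 0.28, limma adjusted p = 3.12e-05). Of 8 markers of meninges and fibroblasts, 2 rose, 4 fell and 2 did not pass, with a summed level of 7759 to 9528 in tumors and 9048 to 11986 in controls. Their part in the result was not tested.

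Both glycine carriers fell. Slc6a5 encodes GlyT2, which refills glycinergic terminals and marks glycinergic neurons such as Golgi cells. It had 135, 165 and 245 normalized counts in the tumor libraries, against 1815, 2268 and 1781 in the control libraries. None of the tumors came near the controls, a 10.97-fold fall (log2 fold change −3.46 ± 0.21, limma adjusted p = 4.24e-07). Slc6a9 encodes GlyT1, a largely glial carrier that sets glycine around synapses. It had 1281, 1862 and 1613 normalized counts in the tumor libraries, against 3440.5, 4004 and 4298 in the control libraries, again with no overlap. It fell by less, 2.49-fold (log2 fold change −1.31 ± 0.14, limma adjusted p = 2.26e-05), and its share of glycine carrier level per kilobase was 92.4% ± 1.98 in tumors and 73.7% ± 3.11 in controls. On the opposite strand Slc6a9 overlaps B4galt2, and the kit does not mark strand, so reads of the overlap cannot be told apart.

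The monoamine and acetylcholine carriers were scarce. Slc6a2 encodes the noradrenaline carrier, and it had 272, 287 and 485 normalized counts in the tumor libraries, against 45.8, 91.5 and 165 in the control libraries. All tumors were above all controls, a 3.77-fold rise, but both groups were spread widely (log2 fold change 1.91 ± 0.42, limma adjusted p = 0.0028). Its control values had the largest coefficient of variation of the 36 members named by rule, 59.6%. Without control library 1, the log2 fold change was 1.44, and without control library 3 it was 2.36. Th, the rate-limiting enzyme of catecholamine synthesis, also rose, with 468, 531 and 275 normalized counts in the tumor libraries, against 93.8, 96.3 and 106 in the control libraries (log2 fold change 2.04 ± 0.25, limma adjusted p = 5.67e-05). Dbh, the enzyme that makes noradrenaline, had 4.33, 3.78 and 54.1 normalized counts in the tumor libraries, against 13.4, 59.4 and 91.96 in the control libraries and did not pass (log2 fold change −1.95 ± 0.98).

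Slc6a3 and Slc6a4, the carriers of dopamine and serotonin, had 18 and 9 reads in the 3 tumors together, against 13 and 4 in the controls, and neither passed. The vesicular monoamine carrier Slc18a2 had 39.7, 15.1 and 56.1 normalized counts in the tumor libraries, against 25.7, 109 and 119.8 in the control libraries, with overlapping groups, and did not pass. Slc18a1, its relative of neuroendocrine cells, fell at low counts, with means of 7.88 ± 2.22 in tumors and 22.9 ± 4.201 in controls (log2 fold change −1.45 ± 0.42, limma adjusted p = 0.0136). It overlaps the abundant Atp6v1b2 on the other strand, which averaged 12264 in tumors and 33701 in controls.

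Slc18a3 encodes VAChT, the vesicular carrier of acetylcholine, and was named here after its values were seen. It had 63.6, 53.9 and 59.03 normalized counts in the tumor libraries, against 2.23, 0 and 3.21 in the control libraries. The tumors held 205 reads in all and the controls 5 (log2 fold change 4.64 ± 0.58, limma adjusted p = 6.95e-05), so the size of the rise rests on few control reads. The gene lies inside Chat, the acetylcholine synthesis gene, on the same strand, and Chat did not pass at 23.3 normalized counts in tumors and 10.9 in controls. Of 7 tested markers of monoamine and cholinergic neurons, 1 rose, which was Th, 3 fell and 3 did not pass. Their summed level, Th included, was 578 to 679 in tumors and 640 to 706 in controls. Fev, a marker of serotonergic neurons, was at 0 in every library of both groups. The part of such neurons in the result was not tested.

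**Figure D3:**
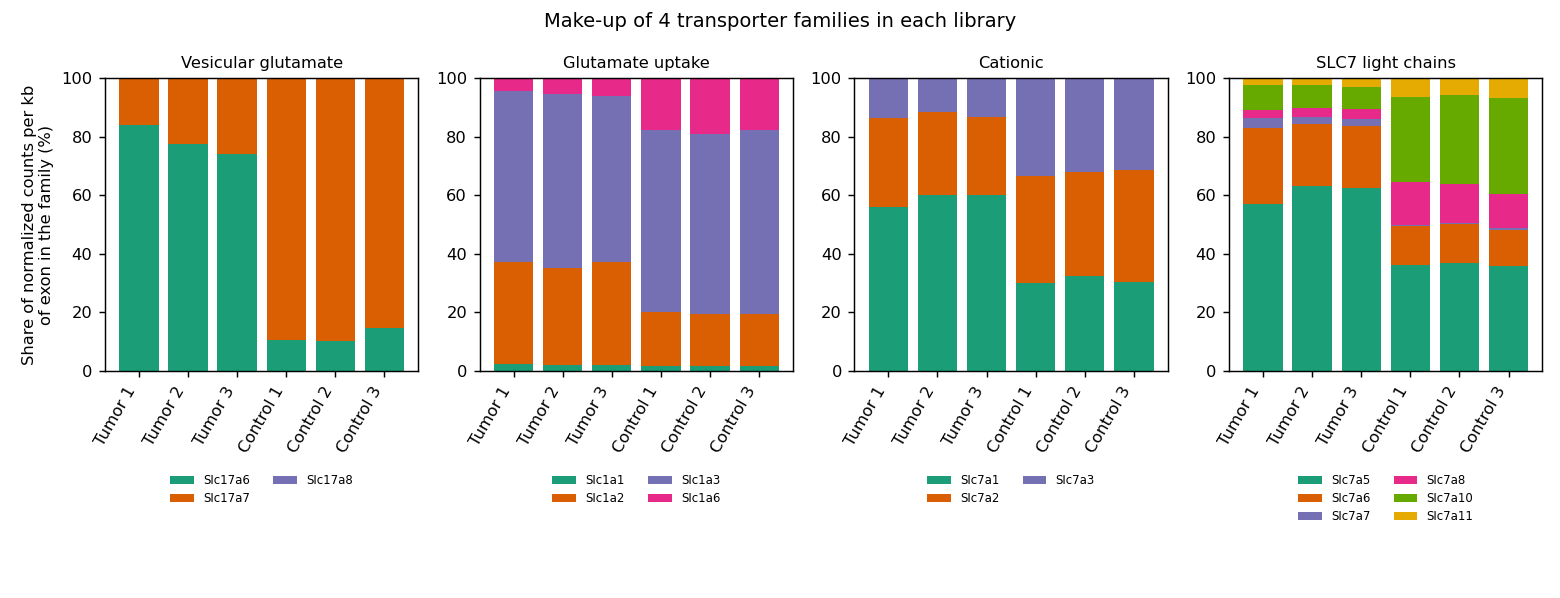
Share of each carrier in its family's summed level per kilobase of exon (y axis, percent), for 4 families, as 1 stacked bar for each library with the 3 tumors left of the 3 controls. On average in tumors Slc17a6 holds 78.6% of the vesicular glutamate carriers, Slc7a1 58.8% of the cationic carriers and Slc7a5 61.0% of the SLC7 light chains, against 11.8%, 31.1% and 36.3% in controls. The light chain shares depend on the exon length of Slc7a10, which is uncertain.

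The 8 nutrient carriers that rose were Slc1a5, Slc7a7, Slc7a6, Slc7a5, Slc1a4, Slc7a1, Slc38a10 and Slc3a2. Slc3a2 encodes the CD98 heavy chain, which pairs with SLC7 light chains and brings them to the cell surface, and lies at chr19:8706882-8723369. It had 8029, 8318 and 8171 normalized counts in the tumor libraries, against 5272, 5649 and 5571 in the control libraries. The tumors lay close together and above the controls, a 1.49-fold rise (log2 fold change 0.57 ± 0.07, limma adjusted p = 7.56e-05). Slc7a5 encodes LAT1, the light chain that exchanges intracellular glutamine for leucine and other large neutral amino acids, and lies at chr8:121881150-121907694. It had 8987, 11268 and 10211 normalized counts in the tumor libraries, against 3821, 3977 and 3939 in the control libraries. The lowest tumor exceeded the highest control, a 2.58-fold rise (log2 fold change 1.37 ± 0.09, limma adjusted p = 9.21e-07).

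Of the 6 tested light chains, 3 rose and 3 fell. Slc7a6 encodes the y+LAT2 chain, which exchanges arginine for glutamine. It had 5055, 4594 and 4285 normalized counts in the tumor libraries, against 1722, 1788 and 1669 in the control libraries, and rose 2.68-fold with no overlap (log2 fold change 1.42 ± 0.09, limma adjusted p = 5.04e-07). Slc7a7 encodes its relative y+LAT1, known from macrophages and from epithelia. It had 469, 402 and 357 normalized counts in the tumor libraries, against 52.5, 30.9 and 59.9 in the control libraries, and each tumor was far above each control, an 8.67-fold rise (log2 fold change 3.12 ± 0.27, limma adjusted p = 5.26e-06). Of 8 microglia markers, 7 rose and 1 did not pass, with a median log2 fold change of 1.66. Their summed level was 29064 to 34195 in tumors, against 8214 to 10020 in controls, and none was at 0 in either group. Their part in the rise of Slc7a7 was not tested.

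The light chains that fell were Slc7a8, Slc7a10 and Slc7a11. Slc7a8 encodes LAT2, a neutral amino acid exchanger with a broader range of substrates than LAT1. It had 604, 756 and 741 normalized counts in the tumor libraries, against 2055, 1977 and 1719 in the control libraries, with no overlap. The fall was 2.74-fold (log2 fold change −1.45 ± 0.12, limma adjusted p = 3.76e-06). Slc7a10 encodes Asc-1, a carrier of small neutral amino acids including glycine and D-serine. It had 738, 798 and 678 normalized counts in the tumor libraries, against 1759, 1859 and 2053 in the control libraries, and fell 2.56-fold (log2 fold change −1.36 ± 0.11, limma adjusted p = 2.36e-06). It overlaps Lrp3 on the other strand, a gene with means of 2683 in tumors and 1385 in controls. Reads of this overlap cannot be told apart either, because the kit does not mark strand. Slc7a11 encodes xCT, which imports cystine in exchange for glutamate and so feeds glutathione synthesis. It had 1406, 1405 and 1888 normalized counts in the tumor libraries, against 2446, 2312 and 2715 in the control libraries. Tumor library 3 came nearest to the controls, and the fall was 1.602-fold (log2 fold change −0.68 ± 0.13, limma adjusted p = 0.00112).

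The ratio of Slc7a5 to Slc7a8 was 14.9, 14.9 and 13.8 in tumors, against 1.86, 2.01 and 2.29 in controls, a 7.09-fold difference with no overlap (exact permutation p = 0.1, adjusted p = 0.12 over 6 ratios). Per kilobase, Slc7a5 held 61.0% ± 3.38 of light chain level in tumors and 36.3% ± 0.437 in controls. Slc7a6 held 22.8% ± 2.86 in tumors and 13.01% ± 0.574 in controls, and Slc7a10 7.80% ± 0.479 in tumors and 30.8% ± 1.87 in controls. The deposited Slc7a10 ends at position 35204898, beyond the end at 35201114 in the annotation that gave the exon lengths. Its level per kilobase may therefore be too high, which would affect all light chain shares and the light chain total. The light chain total was higher in tumor, at 4481 ± 285 normalized counts per kilobase in tumors and 2905 ± 56.9 in controls, a ratio of 1.54. The ratio of Slc7a11 to Slc7a10 was 1.91, 1.76 and 2.79 in tumors, against 1.39, 1.24 and 1.32 in controls, again with no overlap (exact permutation p = 0.1, adjusted p = 0.12). The levels of Slc3a2 per kilobase, 2316 ± 40.9 in tumors and 1558 ± 56.4 in controls, gave the heavy chain a smaller difference than the Slc7a5 light chain, which had 2739 ± 308 in tumors and 1055 ± 21.9 in controls.

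**Figure D4:**
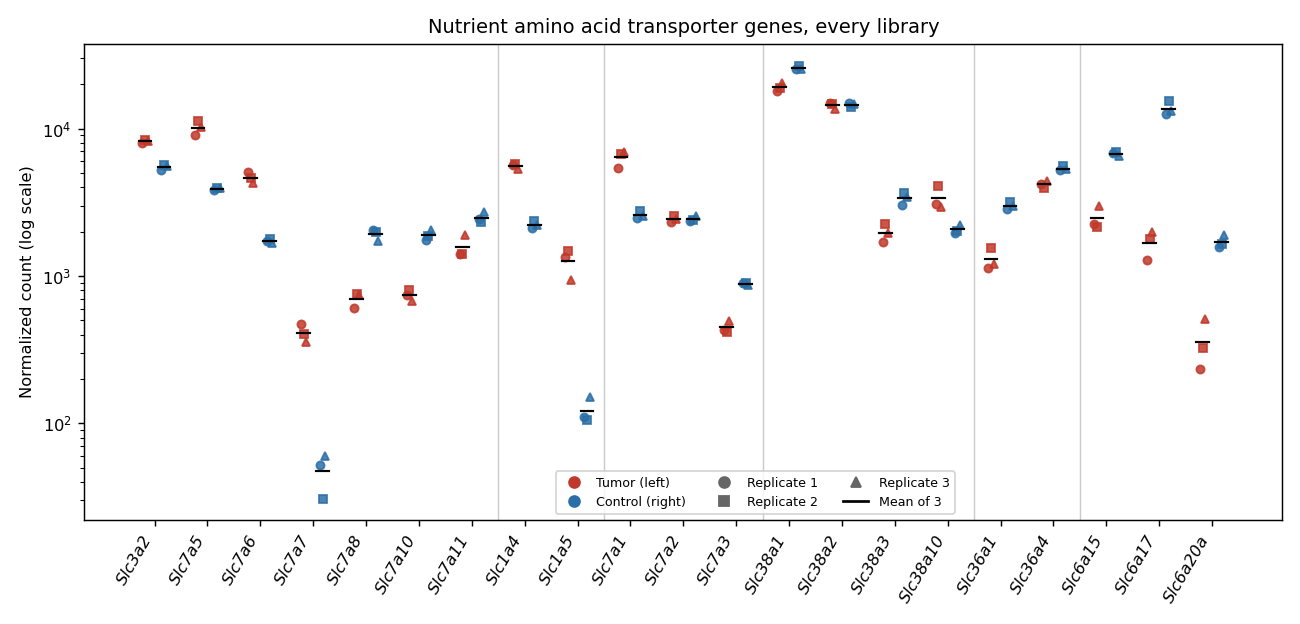
Normalized count (log axis) of nutrient carriers described in the text in each of the 6 libraries, with tumor points left of control points and a bar at the mean of 3. Slc7a5, Slc7a6, Slc7a7, Slc1a4, Slc1a5 and Slc7a1 stand above their controls without overlap, while Slc38a2 and Slc7a2 overlap them.

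Slc1a4 and Slc1a5 encode ASCT1 and ASCT2, exchangers of small neutral amino acids that belong to the glutamate carrier family by sequence but do not clear glutamate. Both rose. Slc1a4 had 5613, 5729 and 5334 normalized counts in the tumor libraries, against 2106, 2359 and 2206 in the control libraries. That is a 2.501-fold rise (log2 fold change 1.32 ± 0.08, limma adjusted p = 4.59e-07). Slc1a5, which carries glutamine and lies at chr7:16781346-16798274, had 1340.3, 1485 and 939.6 normalized counts in the tumor libraries, against 111, 105 and 151 in the control libraries. Tumor library 3 was the lowest of the tumors and still far above all controls, a 10.2-fold rise (log2 fold change 3.34 ± 0.21, limma adjusted p = 5.24e-07). The ratio of Slc1a5 to Slc1a4 was 0.239, 0.259 and 0.176 in tumors, against 0.0525, 0.0444 and 0.0683 in controls (exact permutation p = 0.1, adjusted p = 0.12 over 6 ratios). Together they had 1717 ± 119 normalized counts per kilobase in tumors, against 596 ± 31.6 in controls.

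Some nutrient carriers are known targets of ATF4, the transcription factor of the amino acid response, which binds a composite element with the core TGATGNAA. The promoter windows of RefSeq, from 250 bases before to 50 after a gene's start, were searched for these letters on both strands in build GRCm38.p6. Windows were matched to 51 of the 71 members. The core stood in 3.97% of all 32851 windows and in 4 members, Slc1a4, Slc7a7, Slc7a11 and Slc17a1, of which the first 2 rose, Slc7a11 fell and Slc17a1 was not tested. A member was counted if any of its windows held the core, so the share of windows and the count of members are in unlike units. The windows of the 3 tested genes, whose changes went both ways, are shown 5′ to 3′ on the gene's strand, with the matched core in capitals. They lie at chr11:20332664-20332963, chr14:54417653-54417952 and chr3:50443564-50443863, all on the minus strand. The Slc7a7 window belongs to a RefSeq start upstream of the deposited gene, which spans chr14:54369444-54409472.
Slc1a4: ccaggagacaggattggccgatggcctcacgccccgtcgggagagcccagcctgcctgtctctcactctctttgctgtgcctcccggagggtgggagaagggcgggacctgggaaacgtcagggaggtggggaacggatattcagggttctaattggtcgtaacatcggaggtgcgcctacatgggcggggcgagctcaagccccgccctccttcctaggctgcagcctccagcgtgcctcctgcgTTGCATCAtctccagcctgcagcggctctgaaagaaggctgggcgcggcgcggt
Slc7a7: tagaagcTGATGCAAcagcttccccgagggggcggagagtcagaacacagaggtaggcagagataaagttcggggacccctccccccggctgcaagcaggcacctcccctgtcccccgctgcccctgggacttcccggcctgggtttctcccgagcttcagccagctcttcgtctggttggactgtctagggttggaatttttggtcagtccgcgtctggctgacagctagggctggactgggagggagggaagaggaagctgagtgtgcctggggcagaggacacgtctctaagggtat
Slc7a11: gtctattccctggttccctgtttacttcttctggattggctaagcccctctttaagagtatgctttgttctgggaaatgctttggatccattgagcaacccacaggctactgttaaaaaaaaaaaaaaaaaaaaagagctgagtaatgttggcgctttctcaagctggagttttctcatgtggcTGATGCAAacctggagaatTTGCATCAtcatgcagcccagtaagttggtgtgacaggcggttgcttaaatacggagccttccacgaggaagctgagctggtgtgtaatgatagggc
The core appears once in Slc1a4 and Slc7a7, and in Slc7a11 in both orientations. A match is a run of letters and not a measured binding site. The E-box CACGTG, searched in the same way, stood in 7.15% of windows and in 8 members, of which 3 fell, 3 did not pass, the rest were not tested and none rose. The Gli core GACCACCC stood in 0.807% of windows and in no member's window, where these letters are simply not present.

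The cationic carriers moved in both directions. Slc7a1 encodes CAT1, the general arginine and lysine carrier of most cells. It had 5419.8, 6734 and 6965 normalized counts in the tumor libraries, against 2478, 2777 and 2563 in the control libraries, and rose 2.43-fold with no overlap (log2 fold change 1.28 ± 0.11, limma adjusted p = 3.81e-06). Slc7a3 encodes CAT3, a neuronal form. It had 429.7, 418 and 498 normalized counts in the tumor libraries, against 898, 891 and 866 in the control libraries, and fell 1.98-fold (log2 fold change −0.98 ± 0.12, limma adjusted p = 4.63e-05). Slc7a2, which encodes CAT2, had means of 2429 ± 109 in tumors and 2439.6 ± 93.5 in controls and did not pass (log2 fold change −0.01 ± 0.08). Slc7a1 held 58.8% ± 2.34 of the cationic carrier level per kilobase in tumors and 31.1% ± 1.29 in controls.

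The SLC38 family moves glutamine and other neutral amino acids, and supplies neurons with the precursor of glutamate and GABA. Slc38a1 encodes SNAT1, the carrier of neurons. It had 18014, 18720.1 and 20242 normalized counts in the tumor libraries, against 25402, 26698 and 25266 in the control libraries, and fell 1.36-fold without overlap (log2 fold change −0.44 ± 0.08, limma adjusted p = 0.000953). Slc38a2 encodes SNAT2, a carrier known to respond to amino acid shortage. It had 14854, 14672 and 13513 normalized counts in the tumor libraries, against 14913, 14097 and 14574 in the control libraries. The groups overlapped and it did not pass (log2 fold change −0.02 ± 0.08), and this small difference was above 0 with TMM scaling or library totals. Slc38a3 encodes SNAT3, which releases glutamine from astrocytes. It had 1694, 2247 and 1957 normalized counts in the tumor libraries, against 3012, 3671 and 3448 in the control libraries, and fell 1.72-fold (log2 fold change −0.78 ± 0.12, limma adjusted p = 0.000279).

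The ratio of Slc38a1 to Slc38a3 was 10.6, 8.33 and 10.3 in tumors, against 8.43, 7.27 and 7.33 in controls, and the groups overlapped (exact permutation p = 0.2, adjusted p = 0.2). Slc38a10 was the SLC38 member that rose, with means of 3360.0 ± 638 in tumors and 2070.3 ± 139.7 in controls (log2 fold change 0.68 ± 0.13, limma adjusted p = 0.00109). Slc38a9, a lysosomal carrier that senses arginine for mTORC1, fell, with means of 1087 ± 36.05 in tumors and 1651 ± 134 in controls (log2 fold change −0.60 ± 0.10, limma adjusted p = 0.000406). Slc38a11 had 15.2, 26.5 and 25.6 normalized counts in the tumor libraries, against 112, 149 and 114 in the control libraries, a 5.48-fold fall (log2 fold change −2.46 ± 0.32, limma adjusted p = 9.77e-05). Slc38a8, which entered the test through the controls, held 7 reads in tumors and 95 in controls. Slc38a4, Slc38a5, Slc38a6 and Slc38a7 did not pass.

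All 3 tested SLC36 carriers, which couple small amino acids to protons, fell. Slc36a1 encodes PAT1, found on lysosomes. It had 1128, 1554 and 1198 normalized counts in the tumor libraries, against 2823, 3167 and 2965 in the control libraries, and fell 2.33-fold (log2 fold change −1.22 ± 0.12, limma adjusted p = 1.63e-05). Slc36a4 fell 1.27-fold, with means of 4200.0 ± 217 in tumors and 5348 ± 181 in controls, and Slc36a2, next to Slc36a1 on chromosome 11, was scarce at 7.83 ± 3.39 in tumors and 22.3 ± 6.01 in controls. Both passed the test.

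Among SLC6 carriers of neutral amino acids and proline, 4 of the 5 with values over 1 in at least 2 libraries of each group fell, and Slc6a19 did not pass. Slc6a17 encodes NTT4, a carrier on synaptic vesicles of glutamatergic neurons. It had 1277, 1789.8 and 1986 normalized counts in the tumor libraries, against 12449, 15409.8 and 13047 in the control libraries, an 8.196-fold fall with no overlap (log2 fold change −3.03 ± 0.16, limma adjusted p = 1.53e-07). Slc6a15 encodes a neuronal carrier of branched-chain amino acids and proline. It had 2260.4, 2149 and 2996 normalized counts in the tumor libraries, against 6792, 6923 and 6486 in the control libraries, and fell 2.76-fold (log2 fold change −1.46 ± 0.12, limma adjusted p = 3.68e-06). Slc6a7 encodes the proline carrier of brain synapses. It had 34.7, 62.4 and 128 normalized counts in the tumor libraries, against 440.0, 480.3 and 509 in the control libraries, a 7.19-fold fall (log2 fold change −2.85 ± 0.39, limma adjusted p = 0.000128), with the widest spread among tumors of the 36 named members.

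Slc6a20a encodes the imino acid carrier SIT1, known from meninges and choroid plexus. It had 234, 326 and 509 normalized counts in the tumor libraries, against 1571, 1659.8 and 1900.1 in the control libraries, a 5.02-fold fall (log2 fold change −2.33 ± 0.24, limma adjusted p = 1.63e-05). Tumor library 3 was its highest tumor. Of 8 choroid plexus markers, 1 rose, 6 fell and 1 did not pass. Their summed level was 28910, 24284 and 5961 in tumor libraries 1, 2 and 3, against 73609 to 128068 in controls. Tumor library 3 had the lowest sum, and 3462 of it was Otx2, the marker that rose. Ttr had 20585, 16890 and 231 normalized counts in the tumor libraries, against 65830.5, 109331 and 115205 in the control libraries. The part of choroid plexus in the fall of Slc6a20a was not tested. The adjacent paralog Slc6a20b held 3 reads in tumors and 26 in controls and entered the test through the controls, and reads of near-identical stretches may be split between the copies.

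Of the 10 members in neither class, 6 were tested. Slc6a6, the taurine carrier, had 1918, 2357 and 2465 normalized counts in the tumor libraries, against 5432, 5813 and 6158 in the control libraries, a 2.59-fold fall (log2 fold change −1.37 ± 0.11, limma adjusted p = 2.35e-06). Slc6a8, the creatine carrier, fell 1.69-fold, with means of 3427 ± 303 in tumors and 5788 ± 264 in controls (log2 fold change −0.76 ± 0.09, limma adjusted p = 4.14e-05). Slc7a14 and Slc7a4 are relatives of the cationic carriers whose substrates are unsettled. Slc7a14 had 1640.0, 1624 and 2065 normalized counts in the tumor libraries, against 5573, 5735 and 5331 in the control libraries, and Slc7a4 had 229.6, 232 and 220.4 normalized counts in the tumor libraries, against 859, 996 and 951 in the control libraries. In both the groups stood apart, with falls of 3.14-fold (log2 fold change −1.65 ± 0.11, limma adjusted p = 6.03e-07) and 4.096-fold (log2 fold change −2.03 ± 0.12, limma adjusted p = 4.58e-07). Slc7a4 overlaps P2rx6 on the opposite strand over 4981 bases, and reads of the overlap cannot be told apart. P2rx6 averaged 62.9 normalized counts in tumors and 60.3 in controls. Slc7a6os, a gene beside Slc7a6 that is not a carrier, rose 1.34-fold (log2 fold change 0.42 ± 0.11, limma adjusted p = 0.00698), and Slc17a5, the lysosomal sialic acid carrier, did not pass. The phosphate and urate carriers Slc17a1 to Slc17a4 were among the 12 members not tested, 7 of which had no read in any library.

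Ranked by level per kilobase, the order of members differed between the groups. In tumors Slc1a3 was followed by Slc7a5 (2739 ± 308), Slc1a2 (2624 ± 137), Slc3a2 (2316 ± 40.9) and Slc6a11 (1819 ± 233). In that order Slc7a5 and Slc1a2 did not differ beyond their spread. In controls Slc1a6 (3426 ± 182), Slc1a2 (3391 ± 63.97) and Slc17a7 (2991 ± 228) were among the highest after Slc1a3, and Slc1a6 and Slc1a2 lay within each other's spread. In controls Slc7a5 stood at 1055 ± 21.9 and Slc3a2 at 1558 ± 56.4. Over the 36 named members, the coefficient of variation between libraries had a median of 14.0% in tumors and 6.77% in controls.

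Genes that make or break down the same transmitters mostly fell. Of 22, 16 fell, 2 rose and 4 did not pass, with a median log2 fold change of −0.87. Over all genes tested, 30.6% were called higher and 31.5% lower. Gad2, an enzyme of GABA synthesis, had 1139 ± 569 normalized counts in tumors, against 10626 ± 177 in controls (log2 fold change −3.33 ± 0.26, limma adjusted p = 2.32e-06). Dao, which degrades D-amino acids, had 163 ± 89.6 normalized counts in tumors, against 2887 ± 50.03 in controls (log2 fold change −4.27 ± 0.30, limma adjusted p = 1.06e-06). The 2 that rose were Th and Shmt2, a mitochondrial enzyme that makes glycine from serine, with 5055 ± 561 normalized counts in tumors, against 1187 ± 14.6 in controls (log2 fold change 2.08 ± 0.10, limma adjusted p = 8.62e-08).

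Of 19 genes of the amino acid response, 8 rose, 5 fell and 6 did not pass, with a median of 0.09. The shares over all genes tested were 30.6% higher and 31.5% lower, and the difference was not tested. Psat1, an enzyme of serine synthesis, had 31368 ± 3628 normalized counts in tumors, against 7243 ± 438 in controls (log2 fold change 2.11 ± 0.10, limma adjusted p = 9.33e-08), and Shmt2 belongs to this list as well. The largest falls were those of Vldlr, a lipoprotein receptor (log2 fold change −1.77 ± 0.09, limma adjusted p = 1.3e-07), and Eif2ak4, the kinase GCN2 that senses uncharged tRNA (log2 fold change −0.55 ± 0.09, limma adjusted p = 0.000587). Atf4 did not pass (log2 fold change 0.09 ± 0.09).

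Of 24 genes of amino acid sensing by mTORC1, 4 rose, 11 fell and 9 did not pass, with a median of −0.22. For this list and the next, the shares over all genes tested were 30.6% higher and 31.5% lower. The largest rises were those of Seh1l (log2 fold change 1.25 ± 0.08, limma adjusted p = 5.56e-07) and Sec13 (log2 fold change 1.15 ± 0.07, limma adjusted p = 6.52e-07), subunits shared between the GATOR2 complex and the nuclear pore. The largest falls were those of Rragd (log2 fold change −1.06 ± 0.12, limma adjusted p = 3.63e-05) and Rragb (log2 fold change −1.18 ± 0.08, limma adjusted p = 1.17e-06), which encode Rag GTPases of the lysosome. Of 13 amino acid carriers with other symbols, 4 rose, 8 fell and 1 did not pass. Slc43a1, which encodes LAT3, a facilitated carrier of large neutral amino acids, had 583, 524 and 394 normalized counts in the tumor libraries, against 18.98, 11.9 and 25.7 in the control libraries (log2 fold change 4.70 ± 0.31, limma adjusted p = 7.68e-07). Slc25a18, a mitochondrial glutamate carrier, also rose (log2 fold change 1.53 ± 0.10, limma adjusted p = 6.89e-07). Its relative Slc25a22 fell (log2 fold change −1.96 ± 0.14, limma adjusted p = 1.05e-06), as did Slc43a2, which encodes LAT4 (log2 fold change −1.69 ± 0.10, limma adjusted p = 4.68e-07).

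Across cell type markers, lists of other cells of the tissue moved as well. For every marker list given here, the shares over all genes tested were 30.6% higher and 31.5% lower. All 9 oligodendrocyte markers fell, with a median of −3.08 and a summed level of 63598 to 162212 in tumors, against 685129 to 838114 in controls. Of 8 endothelial markers, 7 fell and 1 did not pass, with a summed level of 6713 to 10597 in tumors and 17686 to 20373 in controls. LAT1 is also known from brain endothelium. Slc7a5 rose while these markers fell, and their part in it was not tested.

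**Figure D5:**
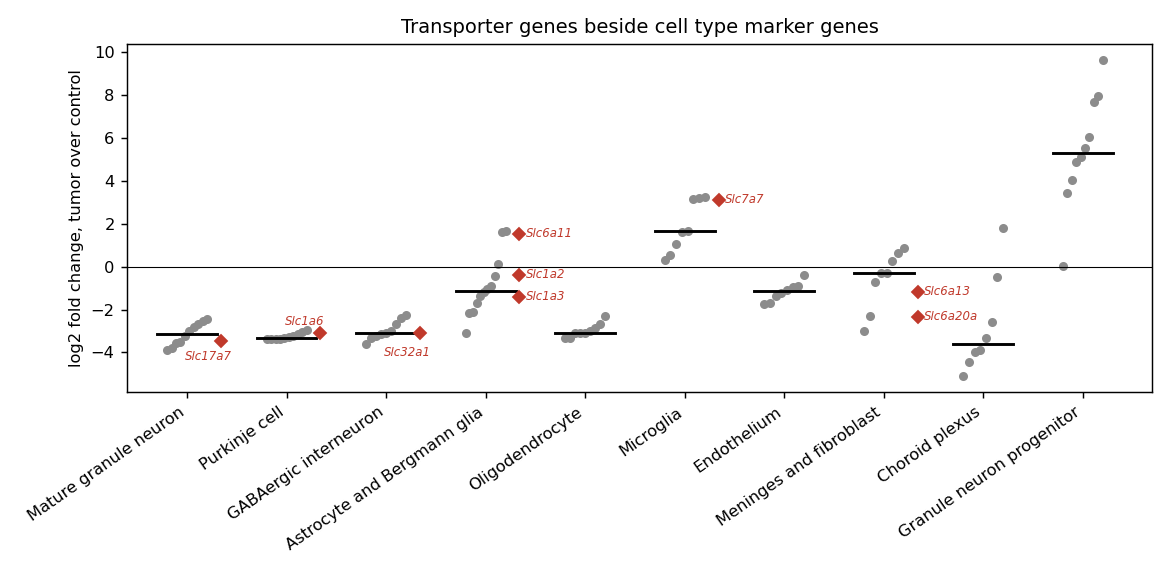
Log2 fold change (tumor over control, y axis) of each marker gene (grey points) in 10 cell type lists, with a bar at the list's median and selected carriers as red diamonds beside the list of a cell type known to express them. Slc17a7 at −3.46, Slc1a6 at −3.11 and Slc32a1 at −3.07 lie near the medians of their lists at −3.12, −3.32 and −3.07. Beside the astrocyte median of −1.11, Slc1a3 is at −1.39, Slc1a2 at −0.37 and Slc6a11 at 1.52. Slc7a7 at 3.12 lies above the microglia median of 1.66. Slc6a20a at −2.33 and Slc6a13 at −1.17 lie below the meninges median of −0.30. Slc6a20a is drawn beside meninges only, and it lies above the choroid plexus median of −3.61. The part of these cell types in the carriers' changes was not tested.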

How the data were processed

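RNA-seq libraries were made with a TruSeq RNA v2 kit after TRIzol and column cleanup, per the labels' protocols. Build mm10 and the tools Bowtie2 2.2.4, featureCounts, edgeR and FastQC are listed in the submitters' processing notes. For the annotation release and counting options, the sources used here give nothing.

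The authors' deposited signal per gene and library holds reads scaled by the library's size factor, as found from the values: 100% were whole multiples of what 1 read is worth (tolerance 1e-06 of a read). The authors' deposited fold and p-value columns entered no test.

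Groups came from the sample titles. On log2(value + 1), limma 3.58.1 in R 4.3.3 was run with its trend option, for genes over 1 in at least 3 libraries, with Benjamini-Hochberg adjustment over 22117 genes. A count test was named for raw counts. The values are normalized, so edgeR 4.0.16 (quasi-likelihood) and DESeq2 1.42.0 on recovered reads were alternatives, beside other pseudocounts, filters and scalings, no trend, a replicate block and leaving out each library. In simulated data for tumor against control (23087 genes tested), limma recovered 18, 46, 50 and 50 of 50 genes changed 1.5-, 2-, 4- and 8-fold, with 4 false calls. The simulation gave all genes and both groups the same dispersion, and its 200 changed genes all had means over 50. In the data, spread was wider in tumors and far more genes were called, so these figures need not carry over.

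No libraries were alike within sampling noise (chi-square per degree of freedom 10.9 to 13.7 between controls, 41.6 to 67.6 between tumors). Levels per kilobase use GENCODE M21 exon lengths. Its start and end equal the deposited ones for 45 of 71 members and overlap for all. Named genes are a list of 22 carriers and every member called with at least 2-fold change and a mean of at least 100 in the higher group, 36 in all. From each of 4 related lists, the 2 largest and 2 smallest called log2 fold changes were named. Others were named where 5 or fewer made up a count, or after their values were seen. Members, classes and lists were chosen with earlier results of these data known. Counts cover all members and markers, of which 2 items are not reported here by name.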

Additional observations from a re-analysis of the deposited data

How the results depend on the processing

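For the 36 named members under 17 alternatives each, 608 of 612 values kept their direction and their side of the threshold. The other 4 were reversals of Slc38a2, whose log2 fold change was 0.0035 with TMM scaling, 0.078 with library totals, 0.0020 with edgeR and 0.023 without tumor replicate 3, against −0.02. Leaving out each library in turn gave it −0.045 to 0.023, and it did not pass under any of the alternatives run. Counts of called members stayed within 1.5 times: 11 to 15 neurotransmitter carriers were lower and 14 to 17 nutrient carriers, with 4 and 8 higher under every alternative. Leaving out 1 library moved Slc6a7 between −3.33 and −2.40, Slc6a2 between 1.44 and 2.36 and Slc6a13 between −1.375 and −0.79. Replicate numbers did not pair the samples (correlations of same-numbered deviations 0.0400, −0.0416 and 0.0040). With a replicate block, 6744 genes were higher and 6943 lower, and 4 neurotransmitter carriers were higher and 12 lower, 8 nutrient carriers higher and 17 lower, and 1 other member higher and 4 lower. Depth limits what can be said of members with under about 3 reads per library in either group.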
